A study of Mus musculus with 12 samples.

Results

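Wnt ligands, the Frizzled receptors that bind them and secreted proteins of families that modulate Wnt signals were described as a set of 34 genes. These were taken by their symbols from the 29462 genes of the deposited expression table. The symbols chosen were those of the Wnt genes, the Frizzled genes (Fzd), the secreted Frizzled-related genes (Sfrp, and Frzb of the same family), the Dickkopf genes (Dkk) and Wif1. They comprise 16 ligands, 10 receptors and 8 modulators, the last being 5 genes of the secreted Frizzled-related family, 2 Dickkopf genes and Wif1. RNA came from cultured primary aortic smooth muscle cells of CSE KO mice, which lack cystathionine gamma-lyase in the whole body, and of C57BL/6J mice (CSE WT). This enzyme, CSE, is encoded by Cth and makes hydrogen sulfide from cysteine. Cells of both genotypes received angiotensin II at 1 uM for 24 h, with 6 libraries of polyadenylated RNA per genotype. Angiotensin II is a peptide hormone that constricts vessels and is widely used to provoke aortic aneurysm in mice. No untreated cells were analysed here, so the comparison is KO against WT under angiotensin II.

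Wnt proteins are lipid-modified secreted signals. When a Wnt engages a Frizzled together with the co-receptors LRP5 or LRP6, beta-catenin is spared from destruction and acts with TCF/LEF factors on target genes, while other ligands, WNT5A among them, act through ROR or RYK receptors and the planar polarity proteins. Secreted Frizzled-related proteins and WIF1 bind Wnt proteins outside the cell, and Dickkopf proteins of the DKK1 type bind LRP5 and LRP6. In arterial smooth muscle, Wnt signals are known for roles in growth, migration and matrix production.

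In each class, the member with the highest mean differed between KO and WT libraries. Among receptors the same pair led in each genotype, with Fzd7 first in KO and Fzd2 first in WT. The ligand Wnt4 and the modulators Sfrp2 and Dkk3 were abundant in WT and low in KO, while the modulators Sfrp1, Frzb and Dkk2 and the ligand Wnt9a were abundant or measurable in KO and close to 0 in WT. Receptor totals differed less, with Fzd5 lower and Fzd10 higher in KO. The stretches of DNA before the starts of 4 of these genes are shown here, 2 higher in KO and 2 lower, to give sequence for members called in each direction; they were chosen after their values were seen. Each is given 5' to 3' on the strand of its gene, with CG dinucleotides, the sites of DNA methylation, in capitals. They are RefSeq sequences of GRCm38.p6, and each ends before the outermost start of its gene in GENCODE M21. The stretch before Sfrp2 (chr3:83766071-83766320, plus strand) and that before Wnt4 (chr4:137277385-137277488, plus strand) belong to genes lower in KO, and those before Dkk2 (chr3:132085042-132085291, plus strand) and Wnt9a (chr11:59306680-59306927, plus strand) to genes higher in KO.
Sfrp2: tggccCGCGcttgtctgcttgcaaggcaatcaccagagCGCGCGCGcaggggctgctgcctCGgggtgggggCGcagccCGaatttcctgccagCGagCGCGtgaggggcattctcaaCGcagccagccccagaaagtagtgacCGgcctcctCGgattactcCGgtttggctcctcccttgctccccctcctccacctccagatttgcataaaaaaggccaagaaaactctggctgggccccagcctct
Wnt4: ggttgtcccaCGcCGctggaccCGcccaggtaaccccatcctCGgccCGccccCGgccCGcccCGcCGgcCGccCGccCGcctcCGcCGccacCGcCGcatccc
Dkk2: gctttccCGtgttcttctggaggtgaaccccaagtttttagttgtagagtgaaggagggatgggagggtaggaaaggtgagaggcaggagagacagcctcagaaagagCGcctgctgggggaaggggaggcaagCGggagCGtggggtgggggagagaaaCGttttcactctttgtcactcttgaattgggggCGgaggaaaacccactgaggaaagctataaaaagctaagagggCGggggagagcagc
Wnt9a: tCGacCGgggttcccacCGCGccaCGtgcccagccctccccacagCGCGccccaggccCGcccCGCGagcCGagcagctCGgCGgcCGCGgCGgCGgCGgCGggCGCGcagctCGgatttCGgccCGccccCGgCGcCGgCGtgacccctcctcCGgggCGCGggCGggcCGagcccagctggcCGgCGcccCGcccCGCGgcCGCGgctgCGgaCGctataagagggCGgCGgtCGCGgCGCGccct
Before the RefSeq start, 250 bases of Wnt9a held 48 CG dinucleotides, those of Wnt4 44, those of Sfrp2 16 and those of Dkk2 7, where the median over 32851 such windows was 6. At least as many were found in 0.186% of all windows for Wnt9a, 0.539% for Wnt4, 25.4% for Sfrp2 and 46.3% for Dkk2. All 4 windows were thus above that median. The Wnt4 window runs past the GENCODE M21 start of its gene, so the stretch shown is only its first 104 bases, which hold 16 CG dinucleotides. The letters CTTTGAT, the core that TCF/LEF factors bind, were searched on both strands in windows of 24 members and found in 2 of them, Wnt11 and Wnt5b; 3.21% of all windows hold them, and none of the 4 stretches shown does.

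Levels are FPKM, fragments scaled by gene length and library total, as deposited by the authors, so genes can be set side by side. Library sums of these FPKM lay between 255538 and 281432, and the read depth behind them is unknown. Unless stated otherwise, values are mean ± SD over 6 libraries per genotype, and adjusted p-values are from limma on log2(FPKM + 1), corrected by Benjamini-Hochberg over the 11831 genes that reached 1 FPKM in 6 or more of the 12 libraries. A difference is that of mean log2(FPKM + 1), KO minus WT, with its SE, whereas a fold is the ratio of mean FPKM. Whether each library is a culture or an animal of its own is not said in the labels, and p-values here measure the spread between libraries, some or all of which may be technical. In bulk RNA, fewer cells of a type and less RNA per cell cannot be told apart.

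Several properties of the whole libraries touch every result. KO replicates 5 and 6 stood apart from KO replicates 1 to 4: correlations across tested genes were 0.947 to 0.96 between these sets, 0.993 to 0.995 among KO replicates 1 to 4 and 0.992 to 0.995 among WT libraries. Results are therefore also given with KO replicates 1 to 4 only, a choice made after the data were seen. Cth was at 0.005 ± 0.00837 FPKM in KO and 0.0233 ± 0.0288 FPKM in WT (exact permutation p = 0.143), so the targeted gene does not check the labels. Myh11, the myosin of contractile smooth muscle, was at 0.00833 FPKM in KO and 0.0133 FPKM in WT. Cnn1 was at 0.135 FPKM in KO and 0.00833 FPKM in WT, and Tagln at 0.695 FPKM in KO and 0.153 FPKM in WT. The 6 contractile markers nevertheless summed to 85.69 to 167.83 FPKM in KO and 123.83 to 152.4 FPKM in WT, most of it Acta2. Cnn1 and Tagln, below the threshold, were higher (adjusted p = 0.022 and 0.039, exact permutation test). Acta2 and Smtn, past the threshold, and Myh11 and Des, below it, did not pass. Leaving out KO replicates 5 and 6 made Acta2 and Smtn lower (limma adjusted p = 3.9e-06 and 1.5e-06). Tagln then lost its call (adjusted p = 0.092, exact permutation test) and Cnn1 kept its own. Marker sums of mesothelial and epithelial cells moved with the genotype. The 6 mesothelial markers summed to 113.57 to 129.14 FPKM in KO, mostly Pdpn, and 11.34 to 12.43 FPKM in WT. Of 5 past the threshold, 4 were higher and Msln was lower, and Lrrn4, below it, did not pass. The 6 epithelial markers summed to 40.31 to 59.73 FPKM in KO and 139.97 to 148.21 FPKM in WT, where Cdh1 was at 65 FPKM but Epcam at 0.065 FPKM. Cdh1 and Krt19, past the threshold, were lower. Krt18, below it, was higher, at 0.245 FPKM in KO and 0.0467 FPKM in WT (adjusted p = 0.022, exact permutation test), and 3 did not pass. Fibroblast markers summed to 494.8 to 1253.95 FPKM in KO and 830.45 to 880.18 FPKM in WT, so KO libraries lay on both sides of WT. Pdgfra and Col3a1 were higher, Col1a2 was lower, and Dcn, Lum and Col1a1 did not pass. Macrophage markers summed to 7.87 to 13.96 FPKM in KO and 2.09 to 2.84 FPKM in WT, with Cd68 and Csf1r higher and Ptprc and Adgre1 not passing. Endothelial markers summed to 0.59 to 0.99 FPKM in KO and 0.13 to 0.28 FPKM in WT. Of these only Kdr was called, higher at 0.623 FPKM in KO and 0.00333 FPKM in WT, while Pecam1, Cdh5, Tek and Vwf did not pass. Ptprc, which marks all white blood cells, was at 0.015 FPKM in each genotype. Xist, expressed from the inactive X of female cells, was at 0.31 to 3.53 FPKM in KO and 0.01 to 0.04 FPKM in WT, while Y-linked Ddx3y was at 3.49 to 6.78 FPKM in KO and 9.87 to 11.81 FPKM in WT. The part of cell type or sex in the differences below was not tested.

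Of the 34 members, 15 were past the threshold for testing; 6 of these were higher in KO, 6 lower, and 3 did not pass. The fit called 63.5% of all tested genes, with 32.6% higher in KO and 30.9% lower, so a count of 12 called among 15 is to be read against a background in which most genes were called. The median difference was 0.06 over the 15 members and 0.01 over all tested genes. Without KO replicates 5 and 6, 8 of the 15 were higher and 6 lower, beside 39.9% and 37.1% of all genes. In 5 members every KO library lay above every WT library and in 6 every KO library lay below, beside 23.8% and 22.5% of all tested genes. Dkk2, Frzb, Wnt5a and Wnt9a reached the threshold through KO libraries alone and Sfrp2 through WT libraries alone, so a difference in these was built into their being tested, and Sfrp1 reached 1 FPKM in a single WT library. With no threshold, 15 of the 34 were higher, 6 lower and 13 did not pass, beside 19.1% and 15.4% of 29060 genes. The 6 lower were not the same genes: Fzd6 lost its call (limma adjusted p = 0.089) and Wnt2b gained one (limma adjusted p = 0.008).

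**Figure D1:**
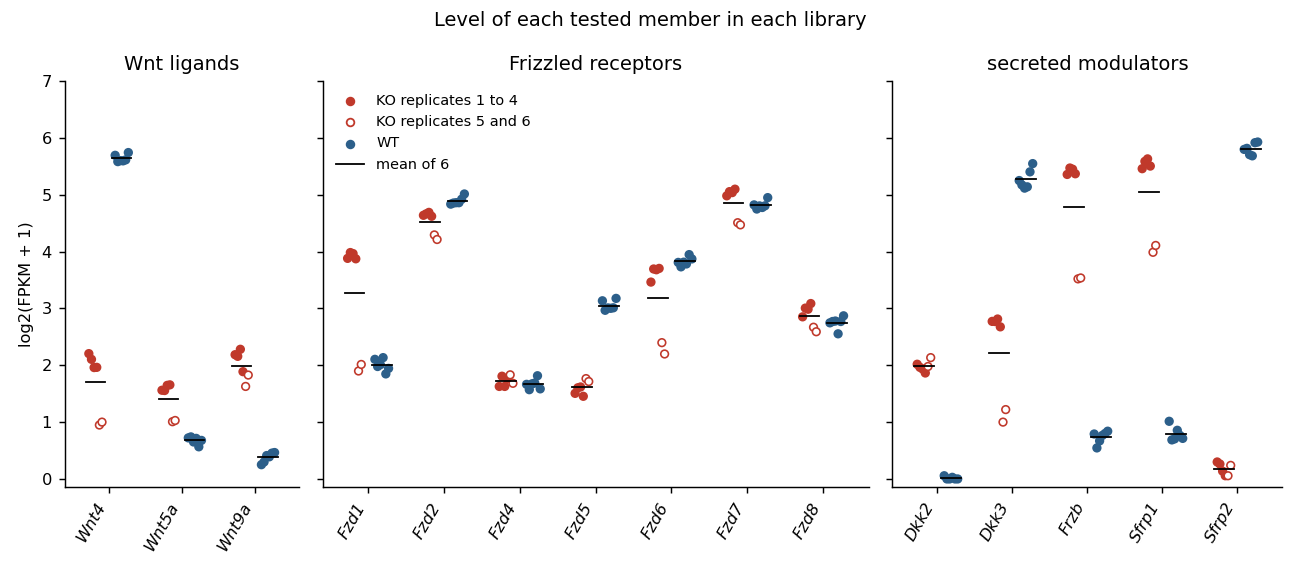
log2(FPKM + 1) of each of the 15 tested members, 1 point per library, KO libraries left of WT libraries, with open points for KO replicates 5 and 6 and lines at the mean of each genotype. Sfrp1, Frzb, Dkk2 and Wnt9a lie higher in KO and Sfrp2, Wnt4 and Dkk3 lower in KO, with no overlap between genotypes, while Fzd1 is split within KO.

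Ligand RNA in WT was almost all Wnt4, and in KO it was spread over Wnt9a, Wnt4 and Wnt5a. Wnt4, a ligand known from kidney and ovary development, lies on chromosome 4 from 137277489 to 137299726 (plus strand, GRCm38). It was at 3.61, 3.30, 2.89, 2.90, 0.93 and 1.00 FPKM in KO replicates 1 to 6, against 50.74, 46.92, 47.51, 47.36, 47.96 and 52.51 FPKM in the WT libraries. No KO library came near any WT library, and the KO libraries themselves split into 4 higher and 2 lower ones. Wnt4 averaged 2.44 ± 1.17 FPKM in KO and 48.8 ± 2.26 FPKM in WT, 20-fold lower in KO (difference -3.94 ± 0.208, adjusted p = 2.5e-09). With KO replicates 1 to 4 only it was 15.4-fold lower (adjusted p = 2.7e-14).

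Wnt9a, a ligand known from joint and skeletal development, lies on chromosome 11 from 59306928 to 59333552 (plus strand). Its values were 3.55, 3.46, 3.86, 2.70, 2.09 and 2.55 FPKM in KO and 0.19, 0.23, 0.33, 0.31, 0.37 and 0.38 FPKM in WT. Every KO library was above every WT library, with means of 3.04 ± 0.688 FPKM in KO and 0.302 ± 0.0765 FPKM in WT (10.1-fold, difference 1.62 ± 0.103, adjusted p = 1.6e-08). KO replicates 5 and 6 were within reach of the others for this gene, unlike for Wnt4. Wnt5a, the ligand best known for signalling through ROR receptors, was at 1.95, 1.94, 2.13, 2.15, 1.01 and 1.04 FPKM in KO and at 0.65, 0.67, 0.57, 0.64, 0.48 and 0.60 FPKM in WT. It rose 2.83-fold, to 1.70 ± 0.533 FPKM in KO, against 0.602 ± 0.0697 FPKM in WT (difference 0.73 ± 0.118, adjusted p = 1.2e-04), with KO replicates 5 and 6 between the other KO libraries and WT.

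Summed over the 16 ligands, KO libraries held 8.52 ± 2.58 FPKM and WT libraries 50.5 ± 2.31 FPKM. KO replicates 1 to 4 lay between 9.46 and 10.55 FPKM, KO replicates 5 and 6 at 4.92 and 5.54 FPKM, and the WT libraries between 48.79 and 54.44 FPKM. Wnt4 made up 27.0% of the sum in KO and 96.6% in WT. Wnt9a made up 36.9% in KO and 0.597% in WT, and Wnt5a 19.99% in KO and 1.19% in WT. Without Wnt4 the order of the genotypes turned round: the other 15 ligands summed to 6.08 ± 1.47 FPKM in KO and 1.71 ± 0.163 FPKM in WT. By mean level the first 3 ligands were Wnt9a, Wnt4 and Wnt5a in KO and Wnt4, Wnt5a and Wnt9a in WT. In KO the first pair, Wnt9a and Wnt4, were within the spread of each other, whereas in WT Wnt4 was above all others in every library.

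The remaining 13 ligands were below the threshold for testing and were compared by an exact permutation test that enumerates every way of splitting the libraries into 6 and 6, adjusted over 17229 such genes. The test called 7.42% of those genes higher in KO and 3.6% lower in KO. Of the 19 members below the threshold, 4 were called higher in KO (the ligands Wnt10a and Wnt6 and the receptors Fzd10 and Fzd3), none was called lower, and 15 did not pass. The smallest adjusted p this test gave was 0.022, which genes without overlap between the genotypes shared. Wnt10a, a ligand known from teeth and skin appendages, was at 0.12 to 0.28 FPKM in KO and 0 to 0.03 FPKM in WT, and Wnt6 at 0.06 to 0.22 FPKM in KO and 0 to 0.05 FPKM in WT. Their genotypes did not overlap (adjusted p = 0.022 each, exact permutation test), though both were far below the 3 tested ligands in KO, and the call of Wnt6 was lost without any 1 WT library (adjusted p = 0.060 to 0.075, exact permutation test). Wnt10a and Wnt6 lie side by side on chromosome 1, from 74791516 to 74804179 and from 74771892 to 74785322, both on the plus strand.

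None of the other low ligands passed with all libraries. Wnt2b averaged 0.095 FPKM in KO and 0.212 FPKM in WT (adjusted p = 0.067, exact permutation test) and Wnt7a 0.103 FPKM in KO and 0.025 FPKM in WT (adjusted p = 0.067, exact permutation test). Wnt10b was at 0.112 FPKM in KO and 0.0633 FPKM in WT (adjusted p = 0.13, exact permutation test), and Wnt5b at 0.263 FPKM in KO and 0.217 FPKM in WT (adjusted p = 1, exact permutation test). Wnt16 was at 0.30 to 0.53 FPKM in KO replicates 1 to 4, at 0.07 and 0.08 FPKM in KO replicates 5 and 6, and at 0.19 to 0.26 FPKM in WT. KO libraries thus lay on both sides of WT for Wnt16 (adjusted p = 0.86, exact permutation test), and with KO replicates 1 to 4 only it was called higher (adjusted p = 0.038, exact permutation test). The 6 ligands Wnt1, Wnt2, Wnt3, Wnt7b, Wnt9b and Wnt11 averaged below 0.1 FPKM in each genotype, and Wnt2, Wnt3, Wnt7b, Wnt9b and Wnt11 were listed at 0 in all WT libraries. In the authors' deposited table, whose ratio runs WT over KO, 18 members were marked significant, with 13 higher in KO and 5 lower in KO. These included Wnt2, Wnt11, Wnt7a and Wnt2b, which did not pass the exact permutation test here. With limma and no threshold each of them passed (limma adjusted p = 0.019, 0.049, 0.023 and 0.008). Fzd2 and Fzd6, called lower here, were not marked significant in the authors' deposited table. The authors' q-value was listed at 0 for Fzd2, at a ratio of 1.3, and at 0.06 for Fzd6. The missing mark of Fzd2 thus did not follow from its q-value alone.

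**Figure D2:**
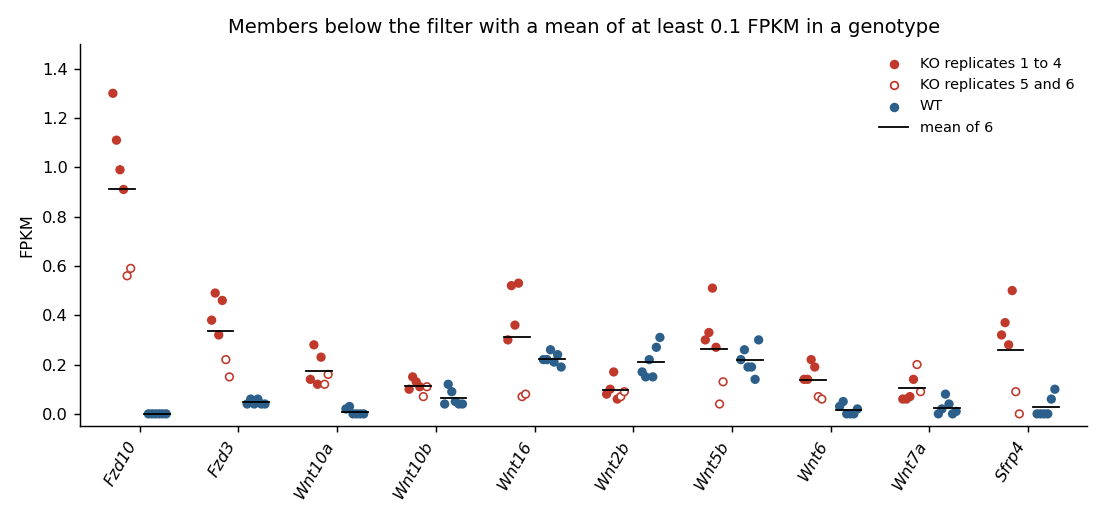
FPKM per library of the members below the threshold for testing whose mean reached 0.1 FPKM in a genotype, KO left of WT. Fzd10, Fzd3, Wnt10a and Wnt6 show no overlap between KO and WT, while Wnt16, Wnt5b and Sfrp4 are split within KO.

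The 10 Frizzled receptors summed to 82.0 ± 19.4 FPKM in KO and 87.4 ± 3.72 FPKM in WT. KO replicates 1 to 4 held 90.11 to 96.57 FPKM, KO replicates 5 and 6 58.53 and 55.64 FPKM, and WT libraries 83.71 to 94.13 FPKM, so the genotypes overlapped. Of the 7 receptors tested, 1 was higher in KO, 3 were lower and 3 did not pass, beside 32.6% higher and 30.9% lower of all tested genes. With KO replicates 1 to 4 only, Fzd7 and Fzd8 joined Fzd1 as higher. Fzd7 and Fzd2 together held most receptor RNA in each genotype: Fzd7 made up 35.1% of the sum in KO and 31.1% in WT, and Fzd2 27.6% in KO and 32.8% in WT.

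Fzd5, a receptor that takes part in beta-catenin signalling, lies on chromosome 1 from 64730558 to 64737751 (minus strand). Its values were 1.84, 2.04, 2.07, 1.74, 2.40 and 2.28 FPKM in KO, against 7.78, 6.82, 7.05, 7.01, 7.06 and 8.04 FPKM in WT. All KO libraries were below all WT libraries, and KO replicates 5 and 6 were the highest of KO here. The level was 2.06 ± 0.251 FPKM in KO and 7.29 ± 0.492 FPKM in WT, 3.54-fold lower in KO (difference -1.44 ± 0.0646, adjusted p = 4.6e-10). Fzd2 was at 23.90, 24.35, 24.80, 23.61, 18.60 and 17.54 FPKM in KO and at 27.53, 27.92, 28.04, 28.03, 29.30 and 31.29 FPKM in WT. It was modestly lower in every KO library, at 22.1 ± 3.19 FPKM in KO against 28.7 ± 1.41 FPKM in WT (difference -0.37 ± 0.087, adjusted p = 0.0022).

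Fzd1 and Fzd6 depended on which KO libraries were read. Fzd1 was at 13.73, 14.81, 14.61, 13.65, 2.73 and 3.04 FPKM in KO and at 3.30, 2.94, 3.03, 3.39, 2.60 and 2.85 FPKM in WT. KO replicates 5 and 6 thus lay inside the range of WT, while the other 4 lay far above it. With all libraries Fzd1 was higher in KO (10.4 ± 5.86 FPKM in KO, 3.02 ± 0.292 FPKM in WT, difference 1.27 ± 0.368, adjusted p = 0.0087), with KO replicates 1 to 4 only the difference was 1.92 (limma adjusted p = 1.2e-11), and an exact rank-sum test over all libraries did not pass (adjusted p = 0.13). Fzd6, a receptor known from planar polarity of hair and skin, was at 10.03, 11.94, 11.82, 12.03, 4.27 and 3.59 FPKM in KO and at 13.02, 12.28, 13.06, 12.76, 14.42 and 13.63 FPKM in WT. KO was below WT throughout, but only KO replicates 5 and 6 were far below. Its call (8.95 ± 3.96 FPKM in KO, 13.2 ± 0.744 FPKM in WT, difference -0.64 ± 0.255, adjusted p = 0.043) was lost without KO replicate 5 (limma adjusted p = 0.091), without KO replicate 6 (limma adjusted p = 0.075) and without any 1 WT library (limma adjusted p = 0.059 to 0.075). The call was also lost with no threshold (limma adjusted p = 0.089). With KO replicates 1 to 4 only the difference was -0.19 (limma adjusted p = 0.007).

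Fzd7, Fzd8 and Fzd4 did not pass with all libraries. Fzd7, the most abundant receptor in KO, was at 28.5 ± 5.5 FPKM in KO and 27.2 ± 1.4 FPKM in WT (difference 0.04, adjusted p = 0.77), and its direction turned with quantile normalization and without KO replicate 4. Fzd8 was at 6.34 FPKM in KO and 5.73 FPKM in WT (limma adjusted p = 0.27), and Fzd4 at 2.31 FPKM in KO and 2.18 FPKM in WT (limma adjusted p = 0.42). With KO replicates 1 to 4 only, the differences of Fzd7 and Fzd8 were 0.23 each (limma adjusted p = 2.1e-04 and 0.0038), while Fzd4 still did not pass (adjusted p = 0.54). By mean level, Fzd7 and Fzd2 led in each genotype. Their ranges overlapped in WT, though Fzd2 was above Fzd7 in every WT library, and Fzd6 and Fzd5 came next. In KO Fzd1 and Fzd6 followed with overlapping ranges. In KO replicates 5 and 6, however, Fzd8 was above both, at 5.36 and 5.02 FPKM.

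Below the threshold, Fzd10 separated the genotypes. This receptor, on chromosome 5 from 128600844 to 128604093 (plus strand), was at 1.3, 1.11, 0.99, 0.91, 0.56 and 0.59 FPKM in KO and listed at 0 in all 6 WT libraries (adjusted p = 0.022, exact permutation test). No fold is given, since WT is listed at 0. Fzd3, a receptor of planar polarity and axon guidance, was at 0.15 to 0.49 FPKM in KO and 0.04 to 0.06 FPKM in WT (adjusted p = 0.022, exact permutation test). Fzd9 was below 0.1 FPKM on average in each genotype.

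**Figure D3:**
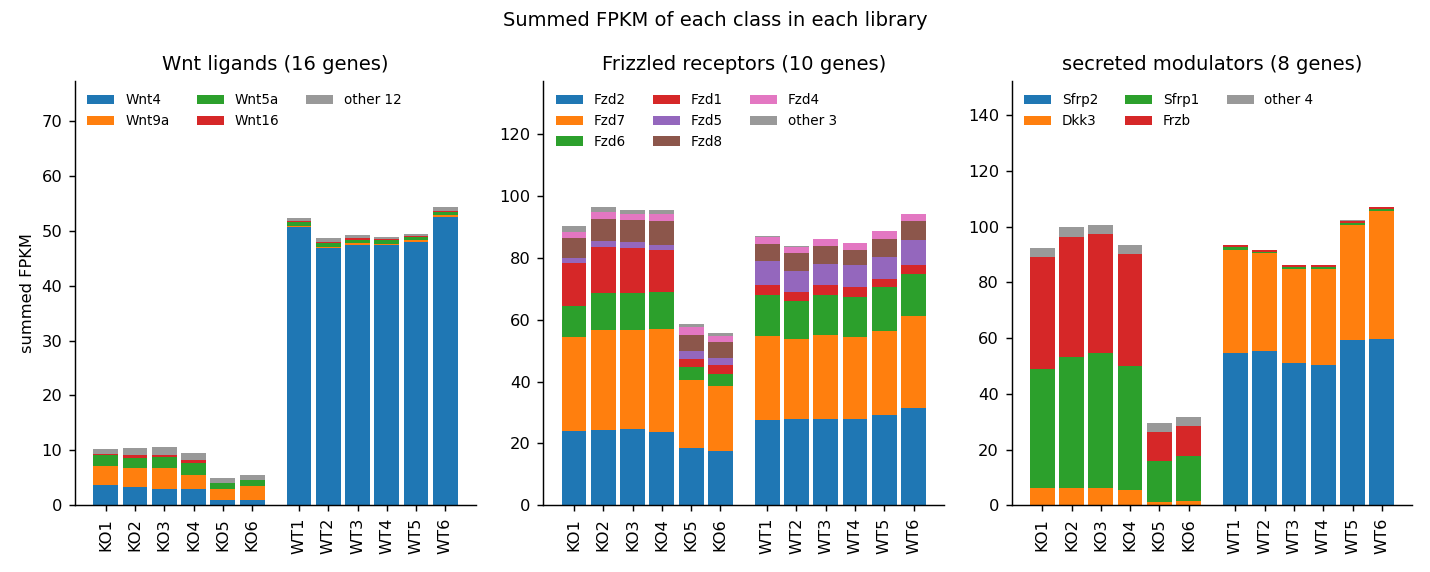
Summed FPKM of the ligands, receptors and modulators in each library, KO bars left of WT bars, with each bar divided by member. The ligand sum is 8.52 FPKM in KO and 50.5 FPKM in WT on average, whereas receptor and modulator sums of KO replicates 5 and 6 lie below all WT sums and those of KO replicates 1 to 4 do not.

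Modulators differed most in which members supplied the RNA. In KO the secreted Frizzled-related genes Sfrp1 and Frzb held 48.5% and 40.2% of the modulator sum, against 0.785% and 0.707% in WT, and in WT Sfrp2 and Dkk3 held 58.5% and 39.99%, against 0.216% and 5.25% in KO. The sum itself was 74.5 ± 34.2 FPKM in KO and 94.4 ± 8.61 FPKM in WT. KO replicates 1 to 4 held 92.39 to 100.48 FPKM, inside the WT range of 86.09 to 107.21 FPKM, while KO replicates 5 and 6 held 29.40 and 31.77 FPKM. All 5 tested modulators passed, 3 of them higher in KO and 2 lower, with no overlap between genotypes in any. Of all tested genes 63.5% passed, and 23.8% lay above WT and 22.5% below WT in every KO library. Dkk2 and Frzb were tested through KO libraries alone and Sfrp2 through WT libraries alone, so for these a difference was built in.

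Sfrp2, a Wnt-binding protein of mesenchymal cells, lies on chromosome 3 from 83766321 to 83774316 (plus strand). It was at 0.23, 0.20, 0.10, 0.04, 0.04 and 0.18 FPKM in KO and at 54.61, 55.32, 51.15, 50.42, 59.36 and 59.84 FPKM in WT. All KO libraries were close to 0 and no WT library was below 50.42 FPKM. Means were 0.132 ± 0.083 FPKM in KO and 55.1 ± 3.96 FPKM in WT (difference -5.63 ± 0.0649, adjusted p = 2.8e-15), and KO replicates 5 and 6 did not stand apart.

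Sfrp1 and Frzb, its relatives, ran the other way. Sfrp1, on chromosome 8 from 23411502 to 23449632 (plus strand), was at 42.96, 47.06, 48.54, 44.38, 14.86 and 16.24 FPKM in KO and at 1.02, 0.61, 0.63, 0.81, 0.70 and 0.64 FPKM in WT. Frzb, also called sFRP3 and first known from cartilage, on chromosome 2 from 80411970 to 80447625 (minus strand), was at 39.98, 43.32, 42.68, 40.32, 10.47 and 10.60 FPKM in KO and at 0.73, 0.46, 0.59, 0.70, 0.74 and 0.79 FPKM in WT. In both genes all KO libraries were above all WT libraries, with KO replicates 5 and 6 well below the other 4. Sfrp1 rose 48.5-fold (35.7 ± 15.7 FPKM in KO, 0.735 ± 0.157 FPKM in WT, difference 4.26 ± 0.284, adjusted p = 2.7e-08) and Frzb 46.7-fold (31.2 ± 16.1 FPKM in KO, 0.668 ± 0.122 FPKM in WT, difference 4.05 ± 0.353, adjusted p = 3.6e-07). With KO replicates 1 to 4 only each was 62.2-fold higher. The family of 5 genes summed to 67.3 ± 32 FPKM in KO and 56.6 ± 4.02 FPKM in WT, with 83.49 to 91.60 FPKM in KO replicates 1 to 4, 25.46 and 27.05 FPKM in KO replicates 5 and 6, and 51.96 to 61.40 FPKM in WT. KO libraries thus lay above or below all WT libraries in the family sum, depending on the library. Sfrp4 was at 0.28 to 0.50 FPKM in KO replicates 1 to 4, 0.09 and 0 FPKM in KO replicates 5 and 6, and 0 to 0.10 FPKM in WT (adjusted p = 0.16, exact permutation test; 0.038 with KO replicates 1 to 4 only). Sfrp5 and the Wnt inhibitor Wif1 were below 0.1 FPKM on average in each genotype and did not pass.

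Of the Dickkopf genes, Dkk3 was lower and Dkk2 higher in KO. Dkk3, a divergent Dickkopf that is not known to bind LRP co-receptors as DKK1 does, lies on chromosome 7 from 112116017 to 112159057 (minus strand). It was at 5.83, 5.82, 6.03, 5.39, 1.00 and 1.33 FPKM in KO and at 37.04, 35.07, 33.68, 34.24, 41.30 and 45.77 FPKM in WT. Every KO library was below every WT library, KO replicates 5 and 6 most of all, and the mean was 8.94-fold lower in KO (4.23 ± 2.39 FPKM in KO, 37.9 ± 4.76 FPKM in WT, difference -3.06 ± 0.314, adjusted p = 1.8e-06). Dkk2, an LRP-binding Dickkopf, lies on chromosome 3 from 132085292 to 132180304 (plus strand). It was at 3.05, 2.90, 2.82, 2.64, 2.94 and 3.39 FPKM in KO and listed at 0 in 4 of the 6 WT libraries. KO libraries were alike, KO replicates 5 and 6 included, at 2.96 ± 0.253 FPKM, against 0.01 ± 0.0167 FPKM in WT (difference 1.97 ± 0.0515, adjusted p = 2.1e-12). Summed, the Dickkopf genes were at 7.19 ± 2.25 FPKM in KO and 37.9 ± 4.76 FPKM in WT.

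**Figure D4:**
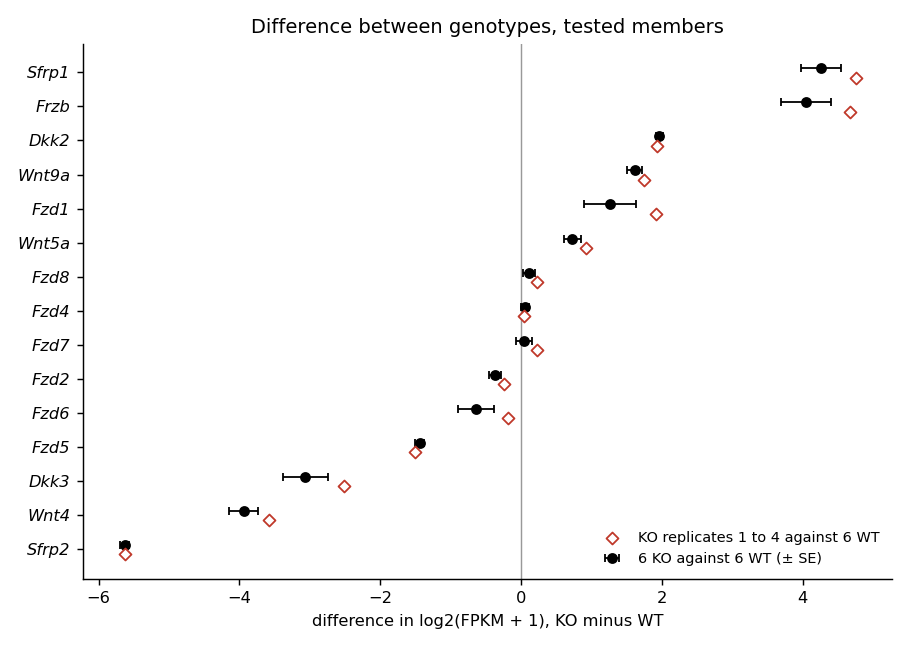
Difference in mean log2(FPKM + 1), KO minus WT, of the 15 tested members with its SE, with all libraries and with KO replicates 1 to 4 only. Sfrp1, Frzb, Dkk2, Wnt9a, Fzd1 and Wnt5a lie to the right of 0 and Sfrp2, Wnt4, Dkk3 and Fzd5 to the left in either reading, while Fzd7 moves from 0.04 to 0.23.

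The rest of the pathway was read from lists of 71 further genes, 67 of which have a row in the table. Of 43 tested, 17 were higher in KO, 15 lower and 11 did not pass, with a median difference of 0.04 beside 0.01 over all tested genes. These shares are near those of all tested genes. Of the 17 higher, 5 (Ror2, Rspo3, Prickle2, Fjx1 and Dact3) reached the threshold through KO libraries alone, so a difference in these was built into their being tested. Of the 24 below the threshold, 13 were higher, Celsr2 was lower and 10 did not pass, beside the 7.42% and 3.6% of all such genes.

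Among receptors other than Frizzleds, the ROR kinases moved in opposite directions. Ror2 was at 5.07 ± 0.46 FPKM in KO and listed at 0 in all WT libraries (adjusted p = 3.8e-13), while Ror1 fell 3.21-fold, to 1.66 ± 0.319 FPKM in KO against 5.33 ± 0.284 FPKM in WT (adjusted p = 9.3e-09). The co-receptor Lrp5 and the Wnt receptor Ryk also rose, and Lrp6 did not pass, at 9.40 FPKM in KO and 10.6 FPKM in WT (limma adjusted p = 0.13). Of the genes for secretion, Porcn, the acyltransferase that attaches the lipid to Wnt proteins, fell to 1.11 ± 0.358 FPKM in KO, against 3.38 ± 0.299 FPKM in WT (adjusted p = 1.4e-06), and the carrier Wls did not pass (23.2 FPKM in KO, 23.8 FPKM in WT, limma adjusted p = 0.69).

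R-spondins raise the number of Frizzleds at the surface through LGR receptors and the ligases RNF43 and ZNRF3. Rspo3 was at 9.46 ± 1.46 FPKM in KO and 0.0417 ± 0.0371 FPKM in WT (adjusted p = 2.1e-12). Of the LGR receptors, Lgr5 and Lgr6 were higher in KO and Lgr4 lower: Lgr4 averaged 4.48 FPKM in KO and 8.32 FPKM in WT (limma adjusted p = 2.1e-04). Lgr5 was at 1.78, 1.80, 1.98, 1.77, 0.34 and 0.55 FPKM in KO and 0.02 to 0.07 FPKM in WT, and Lgr6 at 2.20, 2.49, 2.19, 2.23, 0.34 and 0.42 FPKM in KO and 0 to 0.01 FPKM in WT (adjusted p = 0.022 each, exact permutation test). KO replicates 5 and 6 were thus low for both but still above WT. Of surface modulators, the glypican Gpc4 was at 36.2 ± 10.3 FPKM in KO and 6.74 ± 0.753 FPKM in WT (adjusted p = 1.2e-07), and Tmem132a, which is known to act on the Wnt carrier WLS, at 32.8 ± 2.19 FPKM in KO and 14.8 ± 0.633 FPKM in WT (adjusted p = 1.3e-09).

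Inside the cell, 5 of 11 tested genes of beta-catenin and its destruction complex were lower in KO, 3 were higher and 3 did not pass, beside 30.9% lower and 32.6% higher of all tested genes. Ctnnb1, beta-catenin, fell to 125 ± 28 FPKM in KO, against 219.1 ± 8.76 FPKM in WT (limma adjusted p = 1.3e-04), and the kinase Gsk3b to 7.34 ± 0.973 FPKM, against 14.8 ± 0.586 FPKM in WT (limma adjusted p = 1.6e-07). The 3 higher were Gsk3a, Csnk1e and Btrc (limma adjusted p = 0.023, 3.1e-05 and 0.0029), and the genotypes overlapped in Gsk3a and Btrc. Of 5 tested TCF/LEF factors and cofactors, 1 was higher, 3 were lower and 1 did not pass, beside the same 32.6% and 30.9%. Tcf7l1 rose, the cofactors Bcl9, Bcl9l and Pygo2 fell (limma adjusted p = 7.6e-05, 0.035 and 0.0018), and Tcf7l2 did not pass. Bcl9l overlapped between genotypes, with KO replicate 6 at 20.99 FPKM, above the 18.13 to 19.54 FPKM of WT. Its call was lost with no threshold (limma adjusted p = 0.063). Of 3 below the threshold, 2 were higher, beside 7.42% higher and 3.6% lower of all such genes. These were the cofactor Pygo1 and Tcf7, at 0.67 to 1.32 FPKM in KO and 0 to 0.13 FPKM in WT (adjusted p = 0.022, exact permutation test). Lef1 was near 0 in each genotype, at 0.00167 FPKM in KO and listed at 0 in WT.

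Targets and feedback genes of beta-catenin signalling were called in both directions. Of 6 tested, 3 were higher, 2 lower and 1 did not pass, beside 32.6% higher and 30.9% lower of all tested genes. Of 11 below the threshold, 7 were higher and 4 did not pass, beside 7.42% higher and 3.6% lower of all genes below it. Axin2, a feedback inhibitor and general target of the pathway, was at 0.61, 0.79, 0.91, 0.74, 0.27 and 0.65 FPKM in KO, against 0.01 FPKM in WT replicate 4 and listed at 0 in the other WT libraries. Sp5, a transcription factor induced by Wnt signals, was at 1.33, 1.55, 1.08, 1.92, 0.97 and 1.09 FPKM in KO and listed at 0 in all WT libraries. Both separated the genotypes (adjusted p = 0.022 each, exact permutation test), as did the feedback gene Nkd2 at 0.77 to 1.10 FPKM in KO and 0 to 0.06 FPKM in WT. Of the more abundant targets, Ccn5 was at 81.4 ± 13.1 FPKM in KO and 30.8 ± 1.1 FPKM in WT (adjusted p = 4.6e-08), and Fosl1, an AP-1 factor, at 22.6 ± 18.3 FPKM in KO and 4.25 ± 0.464 FPKM in WT (adjusted p = 3.3e-04), with the highest values, 32.57 and 55.92 FPKM, in KO replicates 5 and 6. Ccnd1 and Myc, which many other signals also induce, were lower on average. Ccnd1 was at 80 FPKM in KO and 122.9 FPKM in WT (limma adjusted p = 5.6e-06), with no overlap. Myc was at 21.4 FPKM in KO and 30.3 FPKM in WT (limma adjusted p = 0.0041), but its genotypes overlapped. It was at 17.12 to 19.13 FPKM in KO replicates 1 to 4 and 28.03 to 31.97 FPKM in WT. KO replicates 5 and 6 were at 24.12 and 32.59 FPKM, the latter above every WT library.

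Of 9 tested planar polarity genes, 4 were higher, 2 lower and 3 did not pass, beside 32.6% higher and 30.9% lower of all tested genes. Prickle2, Fjx1 and Dact3, 3 of the 4 higher, are among those tested through KO libraries alone. Of the 5 planar polarity genes below the threshold, Prickle1 and Dact1 were higher, Celsr2 was lower and 2 did not pass, beside 7.42% and 3.6% of all such genes. Prickle2, a core polarity protein, was at 1.98 ± 0.385 FPKM in KO and 0.015 ± 0.0152 FPKM in WT (adjusted p = 2.1e-09), Fjx1, a secreted relative of the fly protein Four-jointed, at 2.82 ± 0.903 FPKM in KO and 0.0133 ± 0.0121 FPKM in WT (adjusted p = 6.2e-08), and Dact3, which binds Dishevelled, at 3.85 ± 0.643 FPKM in KO and 0.727 ± 0.148 FPKM in WT (adjusted p = 1.2e-08). Daam2, a formin that links Dishevelled to actin, fell to 1.29 ± 0.298 FPKM in KO, against 3.62 ± 0.319 FPKM in WT (adjusted p = 1.5e-07), with KO replicate 6 at 1.88 FPKM the highest of KO. The planar polarity genes called were thus on both sides of 0.

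**Figure D5:**
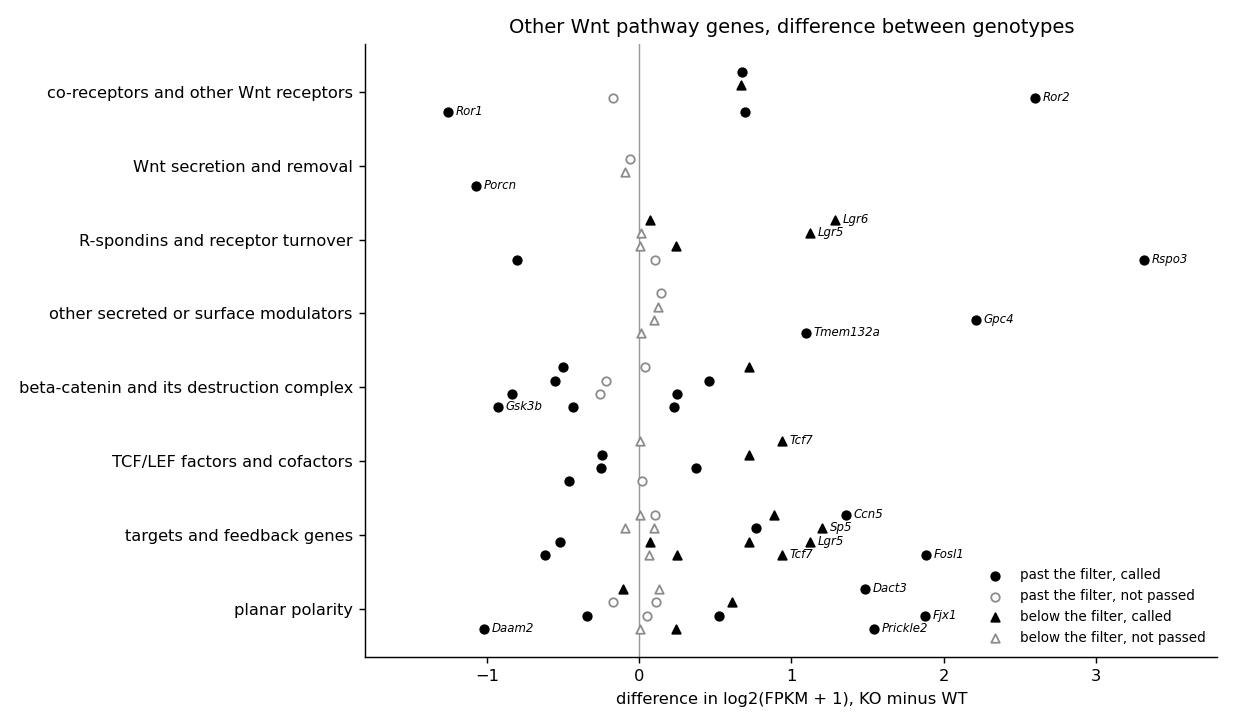
Difference in mean log2(FPKM + 1), KO minus WT, of the other Wnt pathway genes with a row, by list, filled where called and open where not, with circles for tested genes and triangles for genes below the threshold. Ror2, Rspo3 and Gpc4 lie farthest to the right and Ror1, Porcn and Daam2 to the left; a gene on several lists is drawn on each.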

How the data were processed

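RNA was measured by sequencing of polyadenylated RNA in 6 KO and 6 WT libraries, grouped by the genotype in each label. The authors deposited FPKM for 29462 genes, rounded to 2 decimals, beside their own comparison: the ratio of mean FPKM (WT over KO), the log2 of that ratio, and a p-value and q-value whose test is not stated. Tools in the submitters' processing notes, listed with no roles, are StringTie 1.3.4d, HISAT2 2.0.4, cutadapt 1.9, edgeR and DESeq2, and the build is mm9. Strand was marked with dUTP per the labels' protocols; no source used here says whether counting used it. FPKM depends on what other genes of the library take up, and a value of 0 is reported as listed at 0.

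Members were taken by symbol; all 34 matched GENCODE M21 (GRCm38) by gene ID, the source of the positions given. Members, pathway lists and markers were chosen with earlier results of these data known. The 11831 genes that reached 1 FPKM in 6 or more of 12 libraries were compared as log2(FPKM + 1) using limma 3.58.1 (R 4.3.3), a variance trend and no covariate, two-sided, adjusted by Benjamini-Hochberg over all of them at 0.05. Differences on this scale understate changes of low genes. The 17229 lower genes above 0 in at least 1 library were compared by an exact permutation test (smallest p 0.00216), adjusted over all of them. There are no counts in the file, so no count model was fitted. Class sums are descriptions without a test. Named members are all those matching the symbols: called members averaging 2 FPKM or more in either genotype in full, other members by level, and members below 0.1 FPKM in both genotypes by name only; of the pathway lists, up to 4 called genes per list with a fold of at least 2. Wnt5a and Wnt16, Fzd10, Fzd3 and Sfrp4 values per library, Lrp5, Lrp6, Ryk, Wls, Lgr4, Ctnnb1, Gsk3a, Csnk1e, Btrc, Ccnd1, Myc, the TCF/LEF factors and their cofactors, and the pathway genes below the threshold were named after their values were seen. Promoter windows were found for 24 members. Alternatives covered the pseudocount, the filter, scaling, the variance model, library weights, a rank-sum test, a replicate block, each library left out and, added after seeing the data, KO replicates 1 to 4 only.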

Additional observations from a re-analysis of the deposited data

Results flagged for a closer look

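Of 63 groups of 6 libraries examined for a single value far from the rest, 2 were flagged, where chance flags about 1 in 20 groups. Fzd7 was at 29.89 FPKM in WT replicate 6, above the 25.88 to 27.27 FPKM of the other WT libraries. Daam2 was at 1.88 FPKM in KO replicate 6, above the 1.05 to 1.23 FPKM of the other KO libraries and below every WT library.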

How the results depend on the processing

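For 25 members, 555 recomputed results under the alternatives gave 520 that kept direction and side of the threshold, 21 lost calls, 9 gained calls and 5 changes of direction. The changes of direction were of small differences that did not pass. Fzd7 was at -0.099 with quantile normalization, and between -0.0071 and 0.119 when each library was left out. Wnt5b was at -0.0174 with a pseudocount of 0.01, at -0.0227 with quantile normalization, and between -0.0081 and 0.0995 when each library was left out. With no filter, 15 members and 33 other pathway genes were called higher; with at least 5 FPKM in 6 libraries, 2 members and 11 other pathway genes were, and of all genes 2505 were higher and 2270 lower, since fewer genes were tested. Below the filter, 1 member (Wnt2b) was called lower with quantile normalization, and 0 to 1 when each library was left out, the 1 being without KO replicate 3. The call of Wnt6 was lost without any 1 WT library (adjusted p 0.060 to 0.075, exact permutation test). Replicate numbers did not pair the samples (correlations of deviations -0.274 to -0.058); with the replicate block 6 members were higher and 5 lower by limma, Fzd6 losing its call (adjusted p = 0.058), and 0 members below the filter were called higher, since the smallest p over 64 sign assignments is 0.0312. The mean log2 difference of class sums was -2.63 for ligands, -0.13 for receptors and -0.52 for modulators; with KO replicates 1 to 4 only, the last 2 were 0.11 and 0.03, so their sign rests on KO replicates 5 and 6. Depth in reads is unknown, so no floor can be given for members listed at 0.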
